A study of Mus musculus with 20 samples.

Results

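The unexposed antral follicles of 2 experiments were compared with each other: 5 water-only mice of experiment 1 against 5 water-only mice of experiment 2, which together make 10 of the 20 libraries. They were chosen by the experiment and group that the headers of the count table name, and no measured value entered the choice. The study gave mice iodoacetic acid, a by-product of water disinfection, in their drinking water and sequenced mRNA of their ovarian follicles. Its submitters combined the controls of both experiments when they compared doses. All mice were females of the outbred CD-1 stock. Drinking water was untreated for controls and held iodoacetic acid for exposed mice, at 500 mg/L in experiment 1 and 10 mg/L in experiment 2. Treatment began at 40 days of age and lasted 35 days. The experiments were run a month apart. At 75 days, in diestrus, 30 to 40 follicles of 220 to 400 µm were dissected from each mouse by size and frozen, and each library held the follicles of 1 mouse. Libraries were pooled and sequenced on a single lane. The labels do not give the housing, the dissection date of single mice, or the day of RNA extraction.

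An antral follicle is an oocyte enclosed by granulosa cells, with a fluid-filled cavity and an outer coat of theca cells. Theca cells make androgens from cholesterol, and granulosa cells convert them to oestrogens under the control of follicle-stimulating hormone. Vessels, smooth muscle, leukocytes and remnants of corpora lutea lie just outside this coat and can come along when follicles are pulled from the ovary.

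Few genes passed the threshold between the control sets, and none was on the lists of granulosa, theca or oocyte markers, steroid synthesis genes or hormone receptors. Of 18169 genes tested, 27 passed at an edgeR adjusted p under 0.05, which is 0.149%, with 13 higher and 14 lower in experiment 1. At an unadjusted p under 0.05 there were 1758 genes (9.68%), where chance gives about 1 in 20, so the few calls do not show that the sets were otherwise equal. In 550 genes (3.03%) the 5 mice of one experiment all lay on 1 side of the 5 of the other, 260 of them higher and 290 lower in experiment 1. Of the 27 genes, 7 are pseudogenes by their symbol or the product named in the table (25.9%), against 95 of all tested genes (0.523%). The others included genes for ribosomal proteins, for respiratory chain subunits, for a proteasome subunit and for a phosphatase scaffold. CPM below is the estimated count divided by the scaled library size in M (mega) counts. Log2 differences are experiment 1 minus experiment 2, with a standard error (SE), and the standard deviation (SD) is over mice.

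A processed pseudogene is a copy of a spliced mRNA set back into the genome, so its sequence nearly matches the coding sequence of its source gene and many reads fit both. Of the called genes, 25 had a transcript in the GENCODE M21 annotation of build GRCm38. In 9 of these 25 (36%) more than 50% of the stretches of 31 bases also occur in another gene, against 4.75% of the 16800 tested genes with a transcript. More than 10% were shared in 17 of the 25 (68%), against 13.7% of all. Coding stretches of 3 called pseudogenes and their sources are printed here because the reads that tell such a pair apart must cover the few differing bases, set in capitals. Letters are the strand of the gene, 5′ to 3′.
Rpl31-ps12: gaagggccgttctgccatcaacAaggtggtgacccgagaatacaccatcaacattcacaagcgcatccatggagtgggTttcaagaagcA
Rpl31: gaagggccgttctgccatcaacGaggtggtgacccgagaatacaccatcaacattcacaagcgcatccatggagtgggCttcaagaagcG
Rps15a-ps6: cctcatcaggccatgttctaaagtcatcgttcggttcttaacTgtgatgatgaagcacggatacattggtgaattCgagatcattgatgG
Rps15a: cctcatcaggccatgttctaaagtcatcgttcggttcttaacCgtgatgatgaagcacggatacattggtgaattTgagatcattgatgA
Llph-ps2: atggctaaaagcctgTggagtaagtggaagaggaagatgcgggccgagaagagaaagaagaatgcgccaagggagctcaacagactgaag
Llph: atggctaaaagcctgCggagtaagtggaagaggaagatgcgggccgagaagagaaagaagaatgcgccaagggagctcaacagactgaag

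Each printed stretch is 90 bases, chosen as the window with the most differences. Rpl31-ps12 (chr16:16819749-16820123, minus strand) matched the coding sequence of Rpl31 (chr1:39367842-39371911, plus strand) at 371 of 375 bases. Rps15a-ps6 (chr11:6172644-6173036, minus strand) matched that of Rps15a (chr7:118104372-118116188, minus strand) at 385 of 390 bases. Llph-ps2 (chrX:13218210-13218602, minus strand) differed from that of Llph (chr10:120227070-120232582, plus strand) at 1 of 390 bases. Coordinates are those of GRCm38 in GENCODE M21, whereas the submitters' processing notes name GRCm39. The base at such a position in these outbred mice is not known from the count table.

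Rpl31-ps12, a copy of the mRNA for a protein of the large ribosomal subunit, had the largest log2 difference of the called genes with counts in both sets. Controls of experiment 2 had 64.1, 62.0, 73.5, 35.6 and 71.3 CPM (replicates 1 to 5). Those of experiment 1 had 0, 0, 0.273, 0.743 and 2.58 CPM (replicates 6 to 10). The sets did not overlap, and the lowest mouse of experiment 2 lay far above the highest of experiment 1. The log2 difference was −6.39 (SE 0.90; edgeR adjusted p = 0.00651). Rps15a-ps6, a copy of the mRNA for a protein of the small subunit, had 59.8, 51.7, 49.6, 54.1 and 50.3 CPM in experiment 2 and 28.5, 26.5, 31.6, 25.1 and 34.5 CPM in experiment 1. This gap was narrower but as regular, with a log2 difference of −0.86 (SE 0.09; edgeR adjusted p = 0.000254). Both pseudogenes passed in all 10 fits that left out 1 control library each.

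Llph-ps2 went the other way. It had no count in any of the 5 controls of experiment 2, and 2.67, 3.72, 8.06, 4.27 and 4.94 CPM in experiment 1. Against a floor of 3 counts per library it was at least 66.1-fold higher in experiment 1 (edgeR adjusted p = 0.0256), and it passed in 5 of 10 fits that left out a library. Tma7-ps was also higher in experiment 1, at 16.6, 17.1, 18.2, 14.2 and 15.7 CPM against 11.3, 11.5, 11.7, 11.2 and 11.0 CPM (log2 0.53, SE 0.09; edgeR adjusted p = 0.0256). Rplp2-ps1, a copy of a gene for a ribosomal stalk protein, reached 125 ± 19.9 CPM (SD, n = 5) against 83.2 ± 8.98 CPM (SD, n = 5), with a log2 difference of 0.59 (SE 0.11; edgeR adjusted p = 0.0284). Its lowest mouse of experiment 1 had 103 CPM and its highest of experiment 2 had 94.6 CPM. The calls of Tma7-ps and Rplp2-ps1 held in 2 and 3 of the 10 fits that left out a library.

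No source gene passed. Rpl31 itself stood at 512 ± 91.2 CPM in experiment 1 and 517 ± 25.8 CPM in experiment 2 (SD, n = 5 each), with a log2 difference of −0.01 (SE 0.10; edgeR adjusted p = 0.982). Rps15a differed by −0.05 (SE 0.09), Llph by −0.05 (SE 0.09), Tma7 by −0.17 (SE 0.07) and Rplp2 by −0.15 (SE 0.12), with edgeR adjusted p from 0.434 to 0.913. When the CPM of copy and source were added, Rpl31 with Rpl31-ps12 gave 405 to 628 CPM in experiment 1 and 525 to 617 CPM in experiment 2. The sums overlapped between the sets for Rps15a, Llph, Tma7 and Rplp2 with their copies as well. So did each source gene alone, with Rpl31 at 405 to 625 CPM in experiment 1 and 490 to 553 CPM in experiment 2. An overlap of the sums therefore does not show how reads were divided. The ratio of the mean sums was −0.17 on the log2 scale for the Rpl31 pair, −0.13 for the Rps15a pair, 0.11 for the Llph pair, −0.07 for the Tma7 pair and −0.01 for the Rplp2 pair. How the estimation of counts divided reads between copy and source was not tested, so the level of each copy is uncertain.

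**Figure D1:**
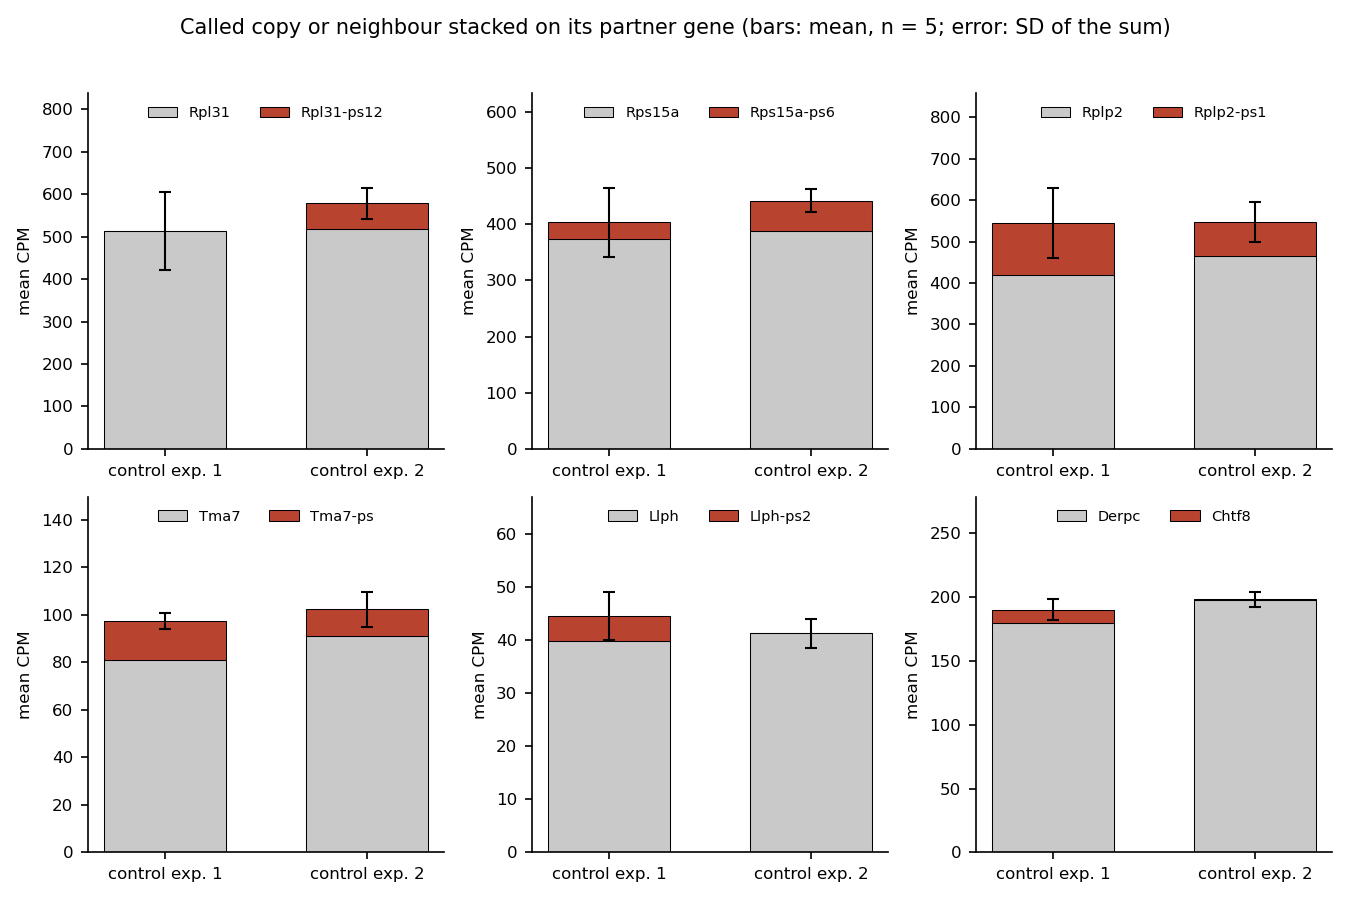
Mean CPM (linear axis, from 0) of a called gene in red stacked on a gene that shares its sequence or locus in grey, in controls of experiment 1 and experiment 2 (n = 5 each), with the SD of the sum. The red part of Rpl31-ps12 is 0.719 CPM in experiment 1 and 61.3 CPM in experiment 2. For Rpl31-ps12 with Rpl31 the sums of both parts overlap between the sets, as do the values of Rpl31 alone.

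Chtf8, which encodes a subunit of a clamp loader used at replication forks, had 10.0, 9.49, 14.9, 7.64 and 9.55 CPM in experiment 1 against 0.549, 0.499, 1.498, 1.87 and 0.636 CPM in experiment 2, a 10.1-fold difference of the fitted values (log2 3.34, SE 0.60; edgeR adjusted p = 0.0284). The sets did not overlap, and the call held in 2 of 10 fits that left out a library. In GENCODE M21 a pair of overlapping gene models on chromosome 8 carries the symbol Chtf8, and the deposited table also lists Derpc, which is known from that locus. Derpc had 180 ± 5.92 CPM against 197 ± 5.46 CPM (SD, n = 5 each; log2 −0.14, SE 0.06; edgeR adjusted p = 0.505). The sum of Chtf8 and Derpc was 179 to 201 CPM in experiment 1 and 189 to 205 CPM in experiment 2.

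Genes of the respiratory chain went in both directions. Of 24 tested nuclear genes of oxidative phosphorylation, 2 passed, both higher in experiment 1, beside 0.149% of all genes, and the median over the list was −0.04. Cox7c, a small subunit of cytochrome c oxidase, had 23.3, 18.4, 28.4, 26.3 and 21.4 CPM in experiment 1 and 7.88, 6.61, 7.90, 7.34 and 5.68 CPM in experiment 2. No mouse of experiment 2 came near the lowest of experiment 1, and the log2 difference was 1.73 (SE 0.29; edgeR adjusted p = 0.0209). It passed in 5 of 10 fits that left out a library. In the reference transcripts 29.9% of the stretches of Cox7c recur in other genes, with 25.3% in Gm10012 and 13.1% in Gm12338. Gm12338 had a mean of 120 CPM in experiment 1 and 118 CPM in experiment 2 (log2 0.03, SE 0.11; edgeR adjusted p = 0.965). The ratio of the mean sums of Cox7c and Gm12338 was 0.20 on the log2 scale. These sums just failed to overlap, at 131.024 to 151.954 CPM in experiment 1 and 115.755 to 131.015 CPM in experiment 2. How reads were divided between Cox7c and Gm12338 was not tested, so the level of Cox7c is uncertain.

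Ndufb3, an accessory subunit of complex I, reached 46.7 ± 1.68 CPM against 37.7 ± 2.46 CPM (SD, n = 5 each; log2 0.31, SE 0.06; edgeR adjusted p = 0.0284). Its call held in 2 of the 10 fits that left out a library. In 6 of the 24 genes the sets did not overlap, against 3.03% of all genes, 4 of them higher in experiment 1. Besides Cox7c and Ndufb3 these were Ndufa1 (log2 0.34), Ndufb9 (log2 0.18), Ndufa2 (log2 −0.27) and Atp5e, the epsilon subunit of ATP synthase (log2 −0.41), and none of these 4 passed (edgeR adjusted p from 0.0536 to 0.455). Without replicate 10 of experiment 1 Atp5e passed (edgeR adjusted p = 0.0368), the only 1 of the 10 fits leaving out a control that called it. Both being subunits of complex I, Ndufa1 had 38.2 to 44.1 CPM in experiment 1 and 29.5 to 33.0 CPM in experiment 2, and Ndufa2 had 40.6 to 47.5 CPM and 52.0 to 56.3 CPM, on the other side.

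Genes for ribosomal proteins were mostly lower in experiment 1. Of 29 tested, 27 had a negative difference, with a median of −0.18, where 49.3% of all genes were negative. At an unadjusted p under 0.05, 11 were lower, against 4.36% of all genes, and 1 passed. Rpl34, a protein of the large subunit, had 24.9, 25.0, 24.9, 19.9 and 29.3 CPM in experiment 1 and 56.6, 45.8, 57.6, 47.7 and 51.2 CPM in experiment 2. The sets were far apart (log2 −1.06, SE 0.14; edgeR adjusted p = 0.00247), and the call held in all 10 fits that left out a library.

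Rps18 lies outside that list and was also called, with 292 ± 34.0 CPM in experiment 1 and 403 ± 16.8 CPM in experiment 2 (SD, n = 5 each; log2 −0.46, SE 0.09; edgeR adjusted p = 0.0426). It passed in 1 of 10 fits that left out a library. Of its stretches 38.1% recur in other genes, and of those of Rpl34 11.6%. Rpl37, Rpl38, Rpl18 and Rps29 did not overlap between the sets either, with log2 differences of −0.56, −0.38, −0.30 and −0.38, and did not pass (edgeR adjusted p from 0.0536 to 0.412). Without replicate 10 of experiment 1 Rpl37 and Rpl38 passed (edgeR adjusted p = 0.0380 and 0.0299), the only 1 of the 10 fits leaving out a control that called them. Replicates 7 and 9 of experiment 1 had the lowest mean log2 CPM of the list, 8.80 and 8.61, where the other 3 mice had 9.005 to 9.08 and those of experiment 2 had 9.12 to 9.18. Without these 2 libraries the median of the list was −0.05, and 5 genes were lower at an unadjusted p under 0.05. The part of these 2 mice in the result beyond this was not tested.

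Called genes known by a model number only were lower in experiment 1. Of the stretches of Gm12508 and Gm5218, 67.6% and 63.4% recur in other genes, with 38.9% and 35.6% in Rpl29. Gm12508 had 13.2 to 18.7 CPM against 22.2 to 24.3 CPM (log2 −0.56, SE 0.10), and Gm5218 had 4.36 to 6.79 CPM against 8.71 to 10.1 CPM (log2 −0.68, SE 0.12), both with an edgeR adjusted p of 0.0284. Gm6402, a pseudogene, had 2.58 to 5.54 CPM against 7.52 to 9.73 CPM (log2 −1.18, SE 0.20; edgeR adjusted p = 0.0209). Gm42067 had 0.430 to 0.886 CPM against 1.15 to 1.87 CPM (log2 −1.20, SE 0.23; edgeR adjusted p = 0.0354). All stretches of Gm8112 recur in other genes, 100% of them in Gm8158 and 43.7% in Rpl23a. Of those of Gm6654 60.7% recur, with 56.9% in Rps26-ps1 and 52.5% in Rps26. Gm8112 and Gm6654 stayed under 1 CPM in every control and are named after their values were seen. Their log2 differences were −2.20 (SE 0.39) and −2.86 (SE 0.53). The calls of these 6 genes held in 1 to 5 of the 10 fits that left out a library.

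Kantr, a long noncoding RNA, had 12.2, 12.3, 12.97, 11.0 and 11.8 CPM in experiment 1 and 8.497, 8.15, 8.31, 7.66 and 8.15 CPM in experiment 2 (log2 0.56, SE 0.09; edgeR adjusted p = 0.0160). None of its stretches of 31 bases recurs in another gene. Lypla1, an enzyme that removes lipid groups from proteins, had 65.6, 65.8, 68.1, 70.3 and 65.8 CPM against 51.6, 56.8, 53.9, 56.4 and 53.9 CPM (log2 0.30, SE 0.05; edgeR adjusted p = 0.0118). In both, the spread within a set was small beside the gap between the sets. Kantr passed in 6 and Lypla1 in 8 of the 10 fits that left out a library.

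The other 9 called genes differed by small steps between sets that did not overlap. Higher in experiment 1 were Uxs1, which makes UDP-xylose (log2 0.35), Rnf149, a RING-type E3 ubiquitin ligase (log2 0.36), Ramac, the activator of the mRNA cap methyltransferase (log2 0.32), Fgfr1op2 (log2 0.25) and Tceal8 (log2 0.36). Lower were Ppp2r1a, the scaffold of protein phosphatase 2A (log2 −0.25), Tmem98 (log2 −0.38), Dpagt1, which starts the lipid-linked glycan for N-glycosylation (log2 −0.32), and Psmb3, a subunit of the proteasome core (log2 −0.33). Their edgeR adjusted p ran from 0.0209 to 0.0493. Ppp2r1a had 155 to 165 CPM in experiment 1 and 187 to 197 CPM in experiment 2, which is the narrowest log2 step of the 9 together with Fgfr1op2. In Tmem98 the sets almost met, at 63.8 CPM for the highest mouse of experiment 1 and 64.0 CPM for the lowest of experiment 2. These 9 calls held in 1 to 6 of the 10 fits that left out a library. Of the stretches of Ramac 71.0% recur in other genes, with 68.5% in Olfr482 and 39.4% in Gm10767. Gm10767 stayed at 0.348 to 0.609 CPM in the controls.

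The number of calls depended on single mice. It was 4 without replicate 6 of experiment 1, 7 without replicate 8, 14 without replicate 7, 13 without replicate 9 and 35 without replicate 10. Among the mice of experiment 2 it was 3 without replicate 3, 3 without replicate 5, 10 without replicate 2, 19 without replicate 1 and 20 without replicate 4. Rps15a-ps6, Rpl34 and Rpl31-ps12 were the 3 genes that passed in all 10 of these fits, and no called gene changed direction in any of them. DESeq2 called 195 genes, 25 of the 27 among them.

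**Figure D2:**
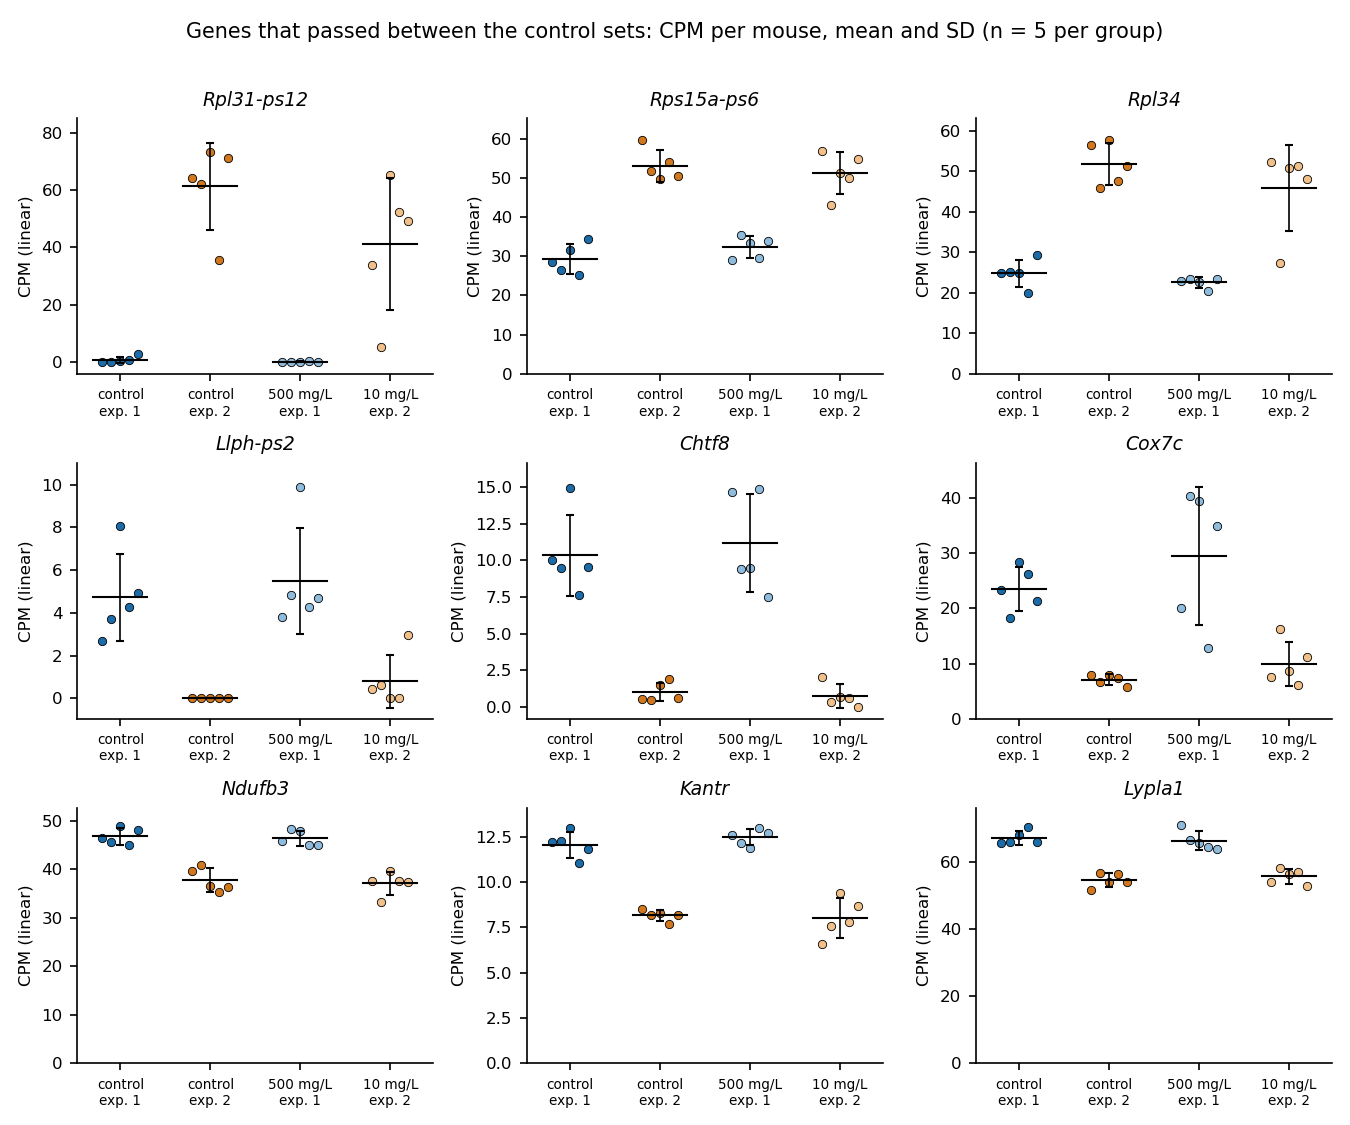
CPM per mouse (linear axis) of 9 genes that passed between the control sets, with the mean and SD of the 5 mice of each group, for controls and exposed mice of both experiments. The controls of experiment 1 and experiment 2 do not overlap in any of the 9 genes. In Rpl31-ps12, 10 mg/L replicates 1 and 2 lie between the control sets (33.7 and 5.21 CPM). In Cox7c, 10 mg/L replicates 2, 3 and 5 (16.3, 8.61 and 11.2 CPM) and 500 mg/L replicate 4 (12.7 CPM) lie between them. In Rpl34, 10 mg/L replicate 2 lies within the controls of experiment 1 (27.2 CPM).

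The exposed mice gave values of the same genes in libraries whose levels did not enter the control difference. They did set the estimate of spread, which all 20 libraries shared, and a fit of the 10 controls alone called 10 genes, 8 of them among the 27. Mice at 500 mg/L belong to experiment 1 and mice at 10 mg/L to experiment 2, so in their comparison experiment and dose cannot be told apart. Of the 27 genes, 26 had the same sign between the exposed sets, beside 58.2% of all 18169 genes. In 24 of the 27 the unadjusted p was also under 0.05 (10.6% of all genes in either direction), and in 21 the exposed sets did not overlap in the same direction (2.15% of all genes did not overlap in either direction). The exception in sign was Gm42067, with a log2 difference of 0.02 (SE 0.22).

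Between the exposed sets 42 genes passed (0.231%), 30 higher and 12 lower at 500 mg/L, and 12 genes passed in both comparisons, which is 44.4% of the 27 and 28.6% of the 42. Those 12 were Rps15a-ps6, Rpl31-ps12, Rpl34, Kantr, Tceal8, Rplp2-ps1, Chtf8, Dpagt1, Gm6402, Ndufb3, Cox7c and Lypla1. The exposed sets of Cox7c overlapped, at 12.7 to 40.4 CPM at 500 mg/L and 6.16 to 16.3 CPM at 10 mg/L. All 42 had the same sign in the controls. When the exposed comparison was fitted on its own 10 libraries, no gene passed in edgeR (0 called, 1542 at an unadjusted p under 0.05). With all 20 libraries, the count of exposed calls was 21 to 57 when 1 exposed library was left out, and 21 without replicate 3 at 500 mg/L.

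Rpl31-ps12 was at 0, 0, 0, 0.387 and 0 CPM in the 5 mice at 500 mg/L and at 33.7, 5.21, 65.2, 52.4 and 49.2 CPM in the 5 mice at 10 mg/L. Rpl34 had 22.9, 23.3, 22.7, 20.4 and 23.5 CPM at 500 mg/L and 52.4, 27.2, 50.7, 51.3 and 48.0 CPM at 10 mg/L. In both genes 4 mice at 10 mg/L were far above all mice at 500 mg/L, and replicate 2 was closer to them. Chtf8 had 14.6, 9.39, 9.47, 14.9 and 7.497 CPM at 500 mg/L and 2.07, 0.363, 0.679, 0.584 and 0 CPM at 10 mg/L, and Llph-ps2, which had no count in the controls of experiment 2, had 0.438, 0.630, 0, 0 and 2.97 CPM at 10 mg/L. The difference between the exposed and the control contrast was tested for every gene, and 0 passed in edgeR (0%, with 984 at an unadjusted p under 0.05), and 0 in limma, while DESeq2 called 15.

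Over the 27 called genes the log2 differences of the controls and the exposed mice had a Pearson r of 0.77, and over all 18169 genes it was 0.04. These are values across genes, which are not replicates, and genes with large differences weigh most in the first. Rpl31-ps12 and Llph-ps2, whose fitted sizes are uncertain, are among the 27. Of the 550 genes whose control sets did not overlap, 464 had the same sign in the exposed mice (84.4%).

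**Figure D3:**
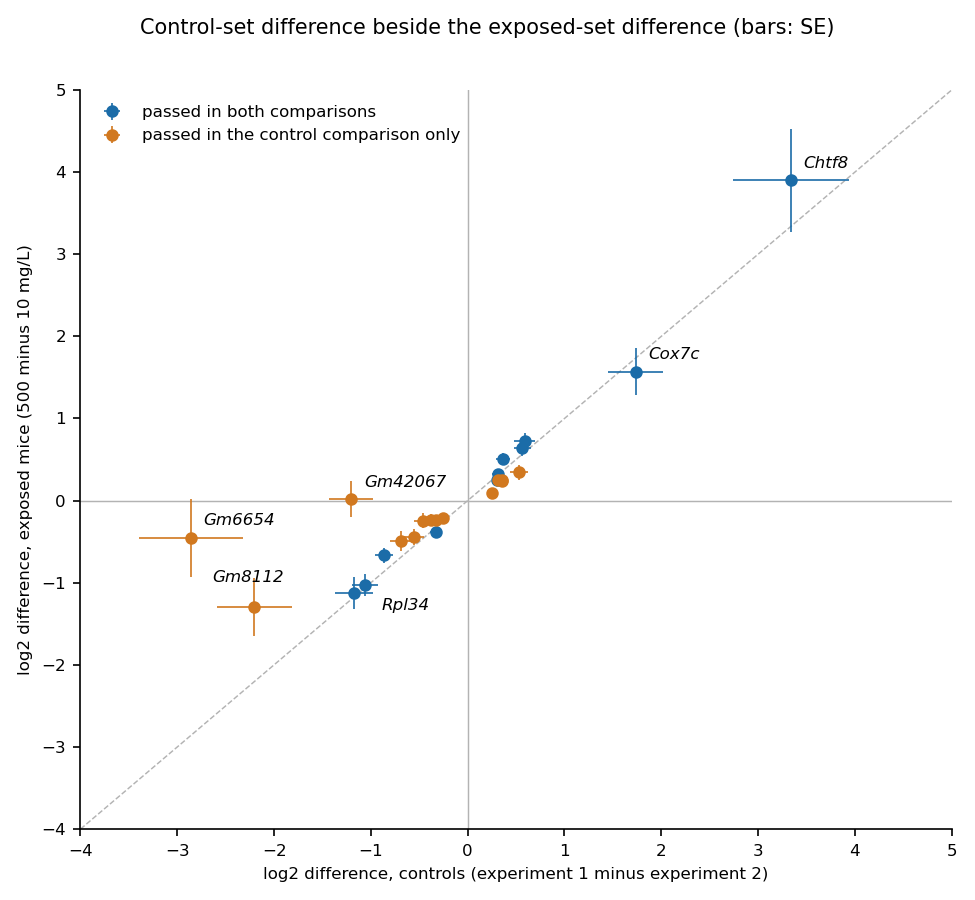
Log2 difference between the control sets (experiment 1 minus experiment 2, x axis) and between the exposed sets (500 minus 10 mg/L, y axis) for 25 of the 27 called genes, with SE bars and the line of equal values. Rpl31-ps12 and Llph-ps2 are left out because a set at or near 0 CPM leaves the size of their fitted difference to the small count that the fit adds. Gm6654 and Gm8112 are shown although controls of experiment 1 were also near 0 (at most 0.108 and 0.201 CPM), so their sizes are uncertain too. Chtf8 (3.34 and 3.90), Cox7c (1.73 and 1.57) and Rpl34 (−1.06 and −1.03) lie near the line, and Gm6654 and Gm42067 do not.

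Base composition differed between the genes of the 2 directions. Among genes of at least 1 CPM whose sets did not overlap, the 220 higher genes with a transcript had a median GC content of 46.7%, the 261 lower ones 51.1%, and all 13889 genes of at least 1 CPM with a transcript 49.7%. Over 10 bins of genes of at least 1 CPM by GC content, the median log2 difference between the control sets went from 0.04 in the GC-poorest bin to −0.01 in the GC-richest, with a minimum of −0.02 in bin 7. Between the exposed sets it went from 0.11 to −0.09. In single control mice, the mean log2 CPM of the GC-richest bin minus that of the GC-poorest, centred over the 20 libraries, ran from −0.16 to 0.17 in experiment 1 and from 0.01 to 0.15 in experiment 2, so the control sets overlapped. At 500 mg/L all 5 mice lay between −0.19 and −0.07, and at 10 mg/L between −0.04 and 0.19. With the GC trend removed, 17 of the 25 called genes with a transcript in the annotation passed, while Gm6402 and Rplp2-ps1 had none and did not enter that fit. The part of base composition in the single calls was not otherwise tested.

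None of the markers of follicle cells passed. No defining marker of granulosa cells, theca cells or the oocyte was at 0 in any control. Of 14 granulosa markers none passed or reached an unadjusted p under 0.05, where 9.68% of all genes did. Their median difference was 0.07, and without replicates 7 and 9 of experiment 1 it was 0.16, with 2 under that p. Their summed level was 11803 to 17506 CPM in experiment 1 and 12535 to 16889 CPM in experiment 2. Inha, the alpha subunit of inhibin, had 5848 ± 1046 CPM against 4992 ± 392 CPM (SD, n = 5 each; log2 0.23, SE 0.16; edgeR adjusted p = 0.700). Aromatase (Cyp19a1), which makes oestrogen, had 42.7, 26.2, 168, 109 and 27.7 CPM in experiment 1 and 62.9, 188, 130, 184 and 60.9 CPM in experiment 2, so it varied more within a set than between the sets (log2 −0.75, SE 0.70). Bex2 and Hsd17b1 differed by 0.36 (SE 0.21) and 0.24 (SE 0.26). In these bulk libraries fewer cells of a type and less RNA per cell cannot be told apart.

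Markers of theca and steroid-making interstitial cells had a median difference of −0.20, with none of 13 passing. At an unadjusted p under 0.05 there were 3, 1 higher and 2 lower, where 9.68% of all genes reached that p. The mean log2 CPM of the list was 7.24 to 8.07 in experiment 1 and 7.26 to 8.17 in experiment 2. Insl3, a peptide hormone of theca cells, had 4.42, 3.68, 6.65, 3.48 and 5.52 CPM in experiment 1 and 3.65, 14.1, 18.7, 13.7 and 19.9 CPM in experiment 2 (log2 −1.56, SE 0.40; edgeR adjusted p = 0.158). In experiment 2 replicate 1 sat with the mice of experiment 1, and without it Insl3 passed (log2 −1.80; edgeR adjusted p = 0.0469). Of the 10 fits that left out a control, only that 1 called it, and the edgeR adjusted p reached 0.374 in the others. Without replicates 7 and 9 of experiment 1 the difference was −1.34 (edgeR adjusted p = 0.442). Cyp17a1, the enzyme that turns progestins into androgens, had 301, 268, 371, 136 and 248 CPM against 179, 968, 1013, 272 and 1048 CPM, so 3 mice of experiment 2 stood above the rest and 2 did not (log2 −1.39, SE 0.53; edgeR adjusted p = 0.397).

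Star, which carries cholesterol into mitochondria for steroid synthesis, went the other way, at 346, 2516, 664, 903 and 198 CPM against 266, 222, 489, 171 and 147 CPM (log2 1.84, SE 0.63; edgeR adjusted p = 0.344). Replicates 7 and 9 of experiment 1 held its highest values, and without them the difference was 0.63 (edgeR adjusted p = 0.826). Cyp11a1, which cleaves the cholesterol side chain, differed by 0.81 (SE 0.42) and by 0.27 without those libraries. Of 13 steroid synthesis genes none passed, with a median of 0.27. Of 11 receptors for gonadotropins and steroids none passed, with a median of 0.10.

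Oocyte markers were lower in experiment 1 in 15 of 16 cases, with a median of −0.23, and none passed. Their summed level was 499 to 793 CPM against 604 to 909 CPM. Oosp1, an oocyte-secreted protein, had 11.9 to 16.5 CPM in experiment 1 and 17.1 to 19.98 CPM in experiment 2 (log2 −0.35, SE 0.18; edgeR adjusted p = 0.559). Kit, the receptor for stem cell factor, Ooep and Nlrp5, both of the subcortical complex of the egg, differed by −0.67, −0.48 and −0.47. Without replicates 7 and 9 of experiment 1 the median of the list was −0.05.

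**Figure D4:**
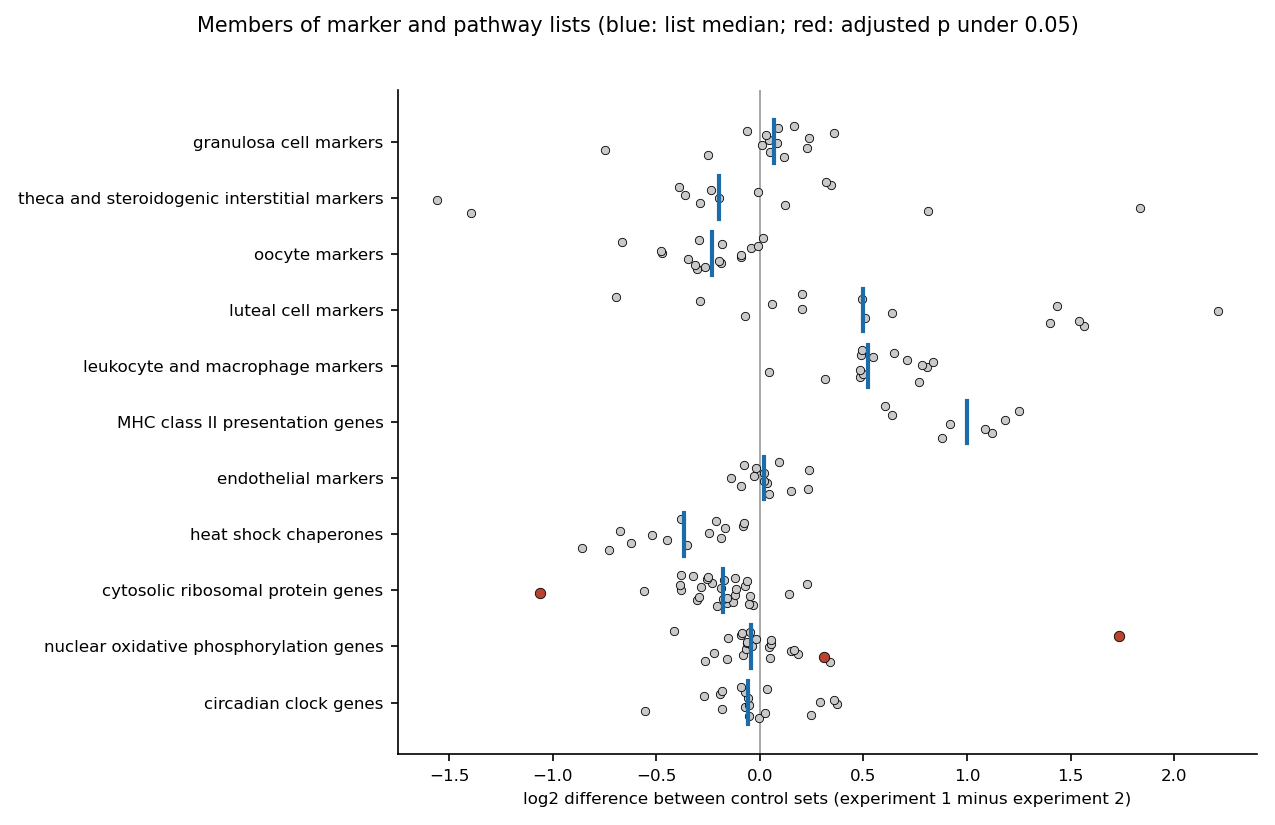
Log2 difference between the control sets (x axis, experiment 1 minus experiment 2) of every tested member of 11 gene lists, with the median of each list as a blue line and members that passed in red. MHC class II genes (median 1.00) and leukocyte markers (0.52) lie to the right and heat shock chaperones (−0.37) to the left, while the 3 red points are Cox7c, Ndufb3 and Rpl34.

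MHC class II genes and leukocyte markers were higher in some mice of experiment 1. All 8 MHC class II genes, which present antigen on leukocytes, had a positive difference, with a median of 1.00, where 50.7% of all genes were positive. In 7 of them the unadjusted p was under 0.05 (5.32% of all genes on that side), and none passed. Between the exposed sets none of the 8 was positive, with a median of −0.42, and the difference between the contrasts had an unadjusted p under 0.05 in 6 and passed in none (edgeR). Cd74, the class II invariant chain, was chosen after its values were seen and had 34.4, 78.5, 89.0, 92.6 and 28.2 CPM in experiment 1 and 52.4, 27.4, 29.7, 30.0 and 31.5 CPM in experiment 2. Replicates 7, 8 and 9 were high, and replicates 6 and 10 lay among the mice of experiment 2. Ciita, the master regulator of class II genes, was the member whose sets did not overlap, at 1.11 to 2.71 CPM against 0.542 to 1.07 CPM (log2 1.18, SE 0.29; edgeR adjusted p = 0.134). H2-Ab1 and H2-DMa differed by 1.12 and 0.64, and H2-DMb1 had 3.43 ± 1.59 CPM against 1.44 ± 0.702 CPM (SD, n = 5 each), with edgeR adjusted p from 0.309 to 0.385.

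All 14 leukocyte and macrophage markers were positive, with a median of 0.52, 4 at an unadjusted p under 0.05 and none passing. Between the exposed sets 5 of the 14 were positive, with a median of −0.10. The summed level of these markers was 105 to 282 CPM in controls of experiment 1, highest in replicate 7. In controls of experiment 2 it was 86.5 to 136 CPM, and no marker was at 0 in any control. In replicate 8 of experiment 1, where Cd74 was high, the summed level was 108 CPM, inside the range of experiment 2. Ptprc, the pan-leukocyte protein CD45, had 1.98, 5.16, 4.58, 6.11 and 2.66 CPM against 2.79, 2.39, 2.53, 1.95 and 2.36 CPM. Fcer1g, C1qc and C1qb differed by 0.71, 0.84 and 0.78. Without replicates 7 and 9 of experiment 1 the median was 0.08, with no marker at an unadjusted p under 0.05. For MHC class II genes it was then 0.70, with 2 such genes.

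Luteal markers were also high in replicates 7 and 9 of experiment 1. Of 14 tested, 11 were positive, with a median of 0.50, and none passed. Between the exposed sets 3 of the 14 were positive, with a median of −0.37. The difference between the contrasts had an unadjusted p under 0.05 in 6 and passed in none (edgeR), beside 984 of all 18169 genes at that p. Ptgfr, the receptor through which prostaglandin F2 alpha acts on the corpus luteum, had 54.9, 509, 83.7, 265 and 61.3 CPM in experiment 1 and 33.5, 64.4, 154, 45.5 and 32.2 CPM in experiment 2 (log2 1.56, SE 0.62; edgeR adjusted p = 0.415). Replicates 7 and 9 were highest, and replicate 3 led experiment 2. Sfrp4, Runx2 and Onecut2 differed by 1.40, 1.44 and 2.21 (edgeR adjusted p from 0.217 to 0.524). Without replicates 7 and 9 the median of the list was −0.04 and the difference of Ptgfr 0.02. Endothelial markers had a median of 0.02, which was −0.11 without those libraries, with none of 13 passing, and Egfl7 with the smallest p differed by 0.24 (SE 0.10).

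**Figure D5:**
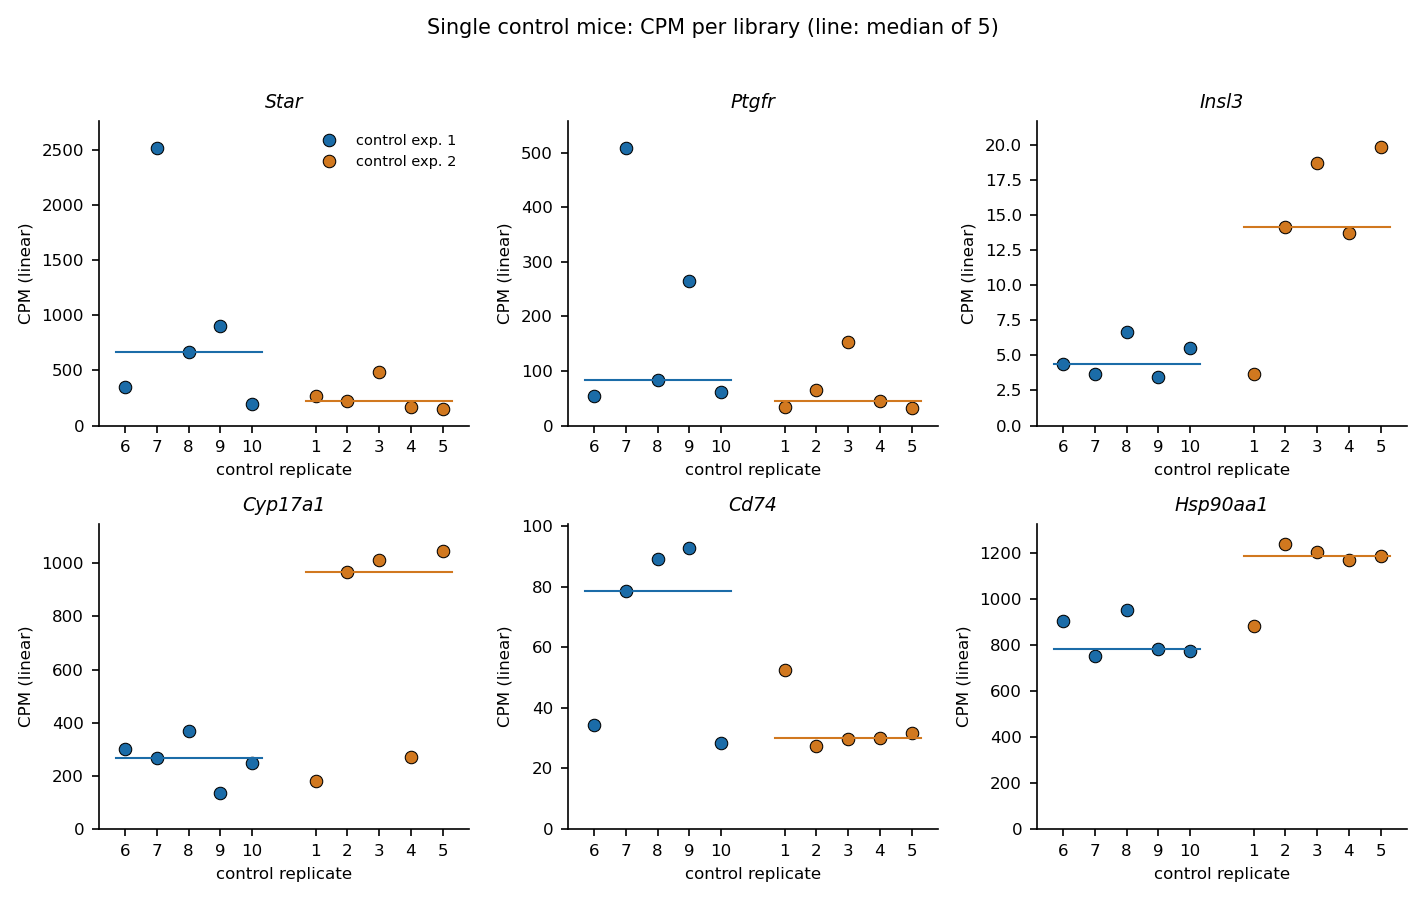
CPM (linear axis from 0) of 6 genes in each of the 10 control mice by replicate number, with the median of each set as a line. Star and Ptgfr are highest in replicates 7 and 9 of experiment 1, Cd74 in replicates 7, 8 and 9, and replicate 1 of experiment 2 lies with experiment 1 in Insl3, Cyp17a1 and Hsp90aa1.

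Heat shock chaperones, which refold damaged proteins, were lower in experiment 1 in 14 of 14 cases, with a median of −0.37. In 9 of them the unadjusted p was under 0.05, against 4.36% of all genes, and none passed. Hsp90aa1 had 902, 751, 953, 783 and 773 CPM in experiment 1 and 883, 1238, 1202, 1167 and 1187 CPM in experiment 2 (log2 −0.45, SE 0.11; edgeR adjusted p = 0.143). Replicate 1 of experiment 2 was the one mouse inside the range of experiment 1. Hspa8 had 2109 to 2937 CPM against 2898 to 3496 CPM, and Dnajb1, a cochaperone, had 56.2 to 87.6 CPM against 95.3 to 131 CPM without overlap. Hspa4l differed by −0.38 (SE 0.14). Without replicates 7 and 9 of experiment 1 the median was −0.29 and 3 chaperones had an unadjusted p under 0.05. Between the exposed sets the median of the 14 was 0.00, with none at an unadjusted p under 0.05.

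Of 18 circadian clock genes none passed, with a median of −0.06. In 1 of the 18 the unadjusted p was under 0.05 (9.68% of all genes), and in 1 the sets did not overlap (3.03% of all genes). Both times that was Nr1d2, a nuclear receptor of the clock, at 79.1, 85.5, 74.0, 86.4 and 82.0 CPM against 68.5, 69.4, 61.4, 73.0 and 60.8 CPM (log2 0.29, SE 0.10; edgeR adjusted p = 0.310). Nr1d1, Dbp and Per3 differed by 0.37, 0.36 and −0.18. Of 21 immediate early genes, induced within minutes of a stimulus, none passed or reached an unadjusted p under 0.05, and the median was −0.01. Of 13 p53 target genes 12 were negative, with a median of −0.17 and 1 at an unadjusted p under 0.05. Without replicates 7 and 9 of experiment 1 the median was −0.08. Cdkn1a, the cell cycle inhibitor p21, had 7.69 to 14.4 CPM against 14.7 to 22.9 CPM (log2 −0.66, SE 0.32; edgeR adjusted p = 0.524).

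The depth of the sets overlapped. Estimated counts summed to 42.3 M to 50.3 M in experiment 1 and 41.7 M to 51.0 M in experiment 2. Total counts, scaling factor, share of the 100 most abundant genes and number of genes detected did not pass in a test of the sets (exact permutation test, two-sided, p from 0.413 to 0.984, adjusted over the 4 tests 0.984). The first principal component of the 10 controls held 21.1% of the variance and set replicates 7 and 9 of experiment 1 apart, at 64.6 and 39.4, from −26.0 to −3.22 in the other 8. On the second, with 13.8%, experiment 1 lay between −28.4 and 3.02 and experiment 2 between −3.90 and 38.9. Between mice of a set expression typically varied by 25.2% in experiment 1, 19.9% without replicates 7 and 9, and 20.7% in experiment 2 (biological coefficient of variation).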

How the data were processed

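mRNA of antral follicles was measured in 20 libraries, 5 in each of 4 groups. The authors deposited estimated counts per gene, and the submitters' processing notes name Salmon 1.2.0, FastQC 0.11.8, edgeR, limma, R 4.1.2 and GRCm39. For the transcript set and the settings, the sources used here give nothing. Per the labels' protocols the libraries were stranded, poly(A)-selected and read from one end for 101 cycles. The deposited estimated counts were rounded to whole numbers here (median change per library 80.0 counts).

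The 18169 of 39253 genes that the authors' table marks as kept were tested with edgeR 4.0.16 (TMM, robust quasi-likelihood, R 4.3.3) in a model of 4 groups and 20 libraries, with Benjamini-Hochberg adjustment and 0.05 as threshold. A called gene passed it. CPM used TMM-scaled library sizes, and log2 CPM a prior count of 2, while fitted log2 differences kept the default prior count of edgeR. The experiment of each control came from the table's column headers. The authors' table of dose comparisons was not used. Shared stretches of 31 bases, length and GC content came from GENCODE M21 (GRCm38), for 16800 genes. The script was tested on simulated data.

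Named were up to 15 called genes per direction with a mean of at least 1 CPM, up to 4 members of each list with the smallest p, and members whose sets did not overlap where a list had 3 or more. A few that the rule names are not reported here. The members and the 32 lists were chosen with earlier results of these data known. Replicate libraries differed by more than sampling noise, so none was counted as a repeat. Each library is 1 mouse, but p-values measure the spread between mice of 1 run of each experiment. Alternatives were other scalings, filters, DESeq2 1.42.0, limma 3.58.1, fewer libraries, and, chosen after seeing the data, a removed GC trend and controls without replicates 7 and 9 of experiment 1. Control sets share no replicate numbers.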

Additional observations from a re-analysis of the deposited data

Results flagged for a closer look

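In 11 of 168 groups of 5 control mice examined, the mouse at one end lay further from the others than Dixon's 95% limit allows, where chance gives about 1 in 20, or 8.4. Replicate 1 of experiment 2 accounted for 4 of them, with the lowest Psmb3 (82.1 CPM), Hsp90aa1 (883 CPM) and Hspa8 (2898 CPM) and the highest H2-Ab1 (17.5 CPM) of its set. Replicate 3 of experiment 2 had the highest Sfrp4 (325 CPM), Ptgfr (154 CPM) and Onecut2 (32.6 CPM). Replicate 4 of experiment 2 had the highest Bex2 (14.0 CPM), and in replicate 2 the 100 most abundant genes took the largest share of counts (14.9%). In experiment 1, replicate 10 had the highest Rpl31-ps12 (2.58 CPM) and replicate 7 the lowest Hsd17b1 (420 CPM).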

How the results depend on the processing

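Against 27 calls between the control sets, 11 genes passed with no filter, 48 with at least 1 CPM in 5 libraries, 195 in DESeq2, 10 in a fit of the 10 controls alone, 17 with the GC trend removed among 16800 genes with a GC value, and 6 without replicates 7 and 9 of experiment 1, of which 5 were among the 27. The other scalings, filterByExpr and limma gave 25 to 38. Leaving out 1 control gave 3 to 35. Of the 42 exposed calls, DESeq2 gave 301, the 10 exposed libraries alone 0, and the GC trend removed 15, and leaving out 1 exposed mouse gave 21 to 57. With the replicate number as a block, 0 exposed genes passed in edgeR (1508 at an unadjusted p under 0.05). Same-numbered exposed mice had correlations of −0.03, −0.12, 0.13, 0.09 and 0.23, so the numbers do not pair them, and 2 of 5 correlated best with their own number. The difference between contrasts gave 15 in DESeq2 and 0 in the other fits, including the 20 that left out a library. The cause of these shifts was not tested, apart from fewer libraries or a different number of genes entering a fit. No called gene reversed its direction. Without replicates 7 and 9 of experiment 1, the medians of luteal (−0.04) and endothelial markers (−0.11) and the difference of Prlr (−0.03, 0.51 with all mice) changed sign, and the receptor median was 0.01. The endothelial median also did so when replicate 6 or 7 of experiment 1 or replicate 4 of experiment 2 was left out, and that of immediate early genes, near 0, in 5 alternatives. Rps15a-ps6 and Rpl34 passed in every alternative run, and Rpl31-ps12 in all but 2, with an edgeR adjusted p of 0.0537 without replicates 7 and 9 of experiment 1.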

Other observations

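Among gene groups not described above, no member passed between the control sets. Of 19 hypoxia and glycolysis genes 18 were lower in experiment 1 (median −0.15), and of 20 genes of cholesterol synthesis and uptake 16 were higher (median 0.14). Of 15 replication-dependent histone genes, whose mRNAs lack a poly(A) tail, 14 were higher in experiment 1 (median 0.51). Only 1 had an unadjusted p under 0.05, where 9.68% of all genes did. Levels were low, with a mean log2 CPM of −1.39 to −0.83 in experiment 1 and −2.15 to −1.32 in experiment 2. Between the exposed sets none of the 15 was positive (median −1.32). The 7 tested RNAs without a poly(A) tail had a median of 0.04 between controls. In 1 exposed library, replicate 2 at 10 mg/L, these RNAs summed to 371 CPM, where the other 19 libraries had at most 33.3 CPM. All 5 erythroid transcripts were negative (median −0.38).

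Medians were 0.09 for smooth muscle and pericyte markers, −0.05 for stromal fibroblast markers, −0.02 for ovulatory genes, 0.18 for surface epithelium and oviduct markers and −0.15 for adipocyte markers. They were 0.13 for interferon-stimulated genes, 0.01 for inhibin, activin and TGF-beta ligands, −0.06 for mitotic genes, 0.02 for stress and unfolded protein response genes, 0.06 for antioxidant genes, −0.01 for extracellular matrix genes and 0.02 for apoptosis regulators.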
